A study of Mus musculus with 6 samples.

Results

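The Hox genes encode homeodomain transcription factors that lie in 4 clusters of the mouse genome, and all deposited gene symbols made of Hoxa, Hoxb, Hoxc or Hoxd and a number were taken as members. There were 39 such genes among 53927 symbols, with 11 in the Hoxa cluster, 10 in Hoxb, 9 in Hoxc and 9 in Hoxd. Mouse embryonic stem cells (ESCs) were profiled by RNA-seq, with 3 libraries of cells kept in BRD0705/PD03 and 3 of cells kept in 2i. BRD0705/PD03 held BRD0705, an inhibitor selective for the alpha form of the kinase GSK3, at 8 µM, and 1 µM of the MEK inhibitor PD0325901 (PD03). The 2i medium held CHIR99021, which inhibits both forms of GSK3, at 3 µM, again with 1 µM PD0325901. Both groups were labelled as wild type and shared the serum-free base N2B27 and gelatin-coated dishes. The labels name the line E14, an established male line, while the culture notes describe B6D2F1 ESCs that had been derived and expanded on feeders, those of each group in its own medium. Which cells were sequenced is therefore not settled.

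In the embryo, Hox genes are switched on in order along each cluster. Genes of low number (the anterior paralog groups) are used first and towards the head, and genes of high number (the posterior groups) later and towards the tail, limbs and urogenital tract. In ESCs the clusters are known for being held nearly silent under Polycomb proteins while their promoters stay poised for activation. Activators known from embryos and differentiating ESCs include retinoic acid, Wnt signalling and the Cdx factors, and Hox proteins bind DNA together with partners of the TALE class, the Pbx and Meis proteins.

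The libraries held 27825601 to 40790837 counts in BRD0705/PD03 and 16968959 to 51180228 in 2i, so a single Hox read weighs differently between libraries, and levels are given as CPM, the usual depth-scaled counts, on effective library sizes. Both groups carried ESC transcripts, with Pou5f1, a core pluripotency factor, at 686 ± 6.29 CPM in BRD0705/PD03 and 764 ± 54.9 CPM in 2i (SD, n = 3 each). Markers of fibroblasts, the cell type of usual feeder layers, were present in every library, with 21 of 25 higher and 1 lower in BRD0705/PD03. In the test given below, 88% of these markers thus passed, beside 61.4% of all genes tested. Their summed level was 2551 to 3485 CPM in BRD0705/PD03 and 1990 to 2063 CPM in 2i, and no marker was at 0 in either group. The Y-linked gene Ddx3y stood at 122 ± 7.05 CPM in BRD0705/PD03 and 3.02 ± 0.26 CPM in 2i, and the median X-linked gene tested had a log2 fold change of -0.78, so medium cannot be told apart from a difference in the cells themselves. All 4 Hox clusters are on autosomes, where the median was 0.01. No label ties the replicates to separate cultures, and p-values thus rest on a spread that may be technical.

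Hox RNA was scarce in both media and scarcer in BRD0705/PD03. All 39 genes together took 337, 344 and 517 counts in the BRD0705/PD03 libraries, against 423, 1252 and 641 counts in the 2i libraries. On the CPM scale the sums were 11.8 ± 1.27 in BRD0705/PD03 and 25.1 ± 0.161 in 2i (SD, n = 3 each), a ratio of 0.472. Every BRD0705/PD03 library lay below every 2i library. For scale, the whole family came to 1.53 to 1.85% of the CPM of Pou5f1 alone in BRD0705/PD03 and to 3.1 to 3.6% in 2i. In bulk RNA, fewer cells that express a gene and less RNA per cell cannot be told apart.

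**Figure D1:**
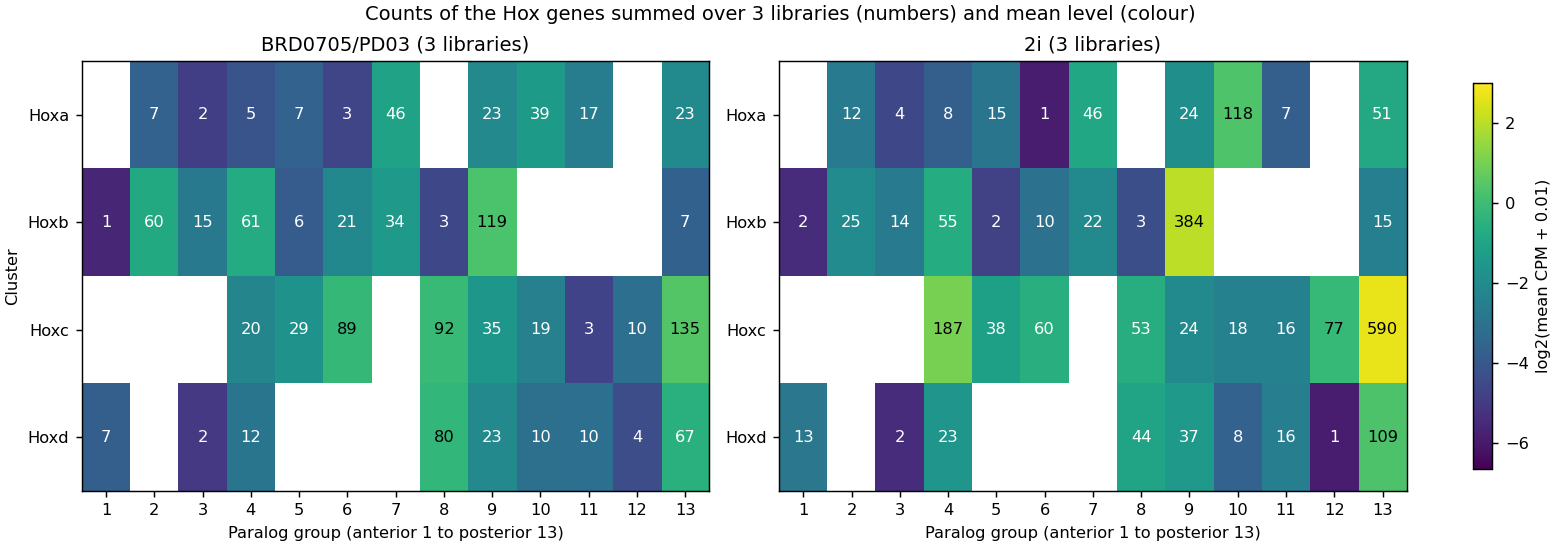
Counts of each Hox gene summed over the 3 libraries of a group (number in each box) and the mean level as log2(mean CPM + 0.01) (colour), with paralog group on the x axis, cluster on the y axis, BRD0705/PD03 on the left and 2i on the right; empty boxes are positions with no gene or with a gene that is not shown. Hoxc13 has the most counts in both panels, with 135 in BRD0705/PD03 and 590 in 2i.

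No member was at 0 in either group, but many stood at or near the floor. A sum of at most 3 counts over the 3 libraries, which is 0.0297 CPM in BRD0705/PD03 and 0.0325 CPM in 2i, was taken as silent. By that measure 33 of 39 members were detected in BRD0705/PD03, 33 in 2i and 31 in both. The silent members in BRD0705/PD03 were Hoxa3 (2 counts), Hoxa6 (3), Hoxb1 (1), Hoxb8 (3), Hoxc11 (3) and Hoxd3 (2). In 2i they were Hoxa6 (1 count), Hoxb1 (2), Hoxb5 (2), Hoxb8 (3), Hoxd3 (2) and Hoxd12 (1). Hoxa6, Hoxb1, Hoxb8 and Hoxd3 were thus silent in both media. Hoxb1, silent in both, is an anterior gene that retinoic acid induces early in differentiating ESCs. Hoxa3, Hoxb5 and Hoxd12 had 2, 6 and 4 counts in BRD0705/PD03 against 4, 2 and 1 in 2i, and the intervals of their ratios all held 1. Hoxc11 had 3 counts in BRD0705/PD03 and 16 in 2i, a ratio of 0.172 (exact 95% interval 0.0321 to 0.6). Such intervals and floors cover counting error only.

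The leaky RNA was uneven between clusters. The Hoxc cluster (chromosome 15, 102921103 to 103036852, GRCm38) took 36.1% of Hox counts in BRD0705/PD03 and 45.9% in 2i, and its summed level was 4.21 ± 0.663 CPM in BRD0705/PD03 and 11.6 ± 0.676 CPM in 2i, a ratio of 0.363. Hoxa (chromosome 6) summed to 2.19 ± 0.222 CPM in BRD0705/PD03 and 5.02 ± 0.66 CPM in 2i. Hoxb (chromosome 11, 96194316 to 96368256) summed to 3.25 ± 0.321 CPM in BRD0705/PD03 and 5.69 ± 0.385 CPM in 2i. In these 3 clusters every BRD0705/PD03 library lay below every 2i library. Hoxd (chromosome 2, 74668310 to 74765142) did not separate the media, at 1.75, 2.87 and 1.94 CPM in BRD0705/PD03 against 3.02, 2.71 and 2.6 CPM in 2i.

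A few genes carried these sums. Hoxc13 and Hoxb9 together made 21.2% of all Hox counts in BRD0705/PD03 and 42.1% in 2i. Without the most abundant gene of each cluster, the log2 ratio of the summed CPM of BRD0705/PD03 over 2i was -0.49 for the family in place of -1.08, and the Hoxb sum turned to 0.35 in place of -0.81. Without Hoxb9 the Hoxb sum was thus no lower in BRD0705/PD03.

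**Figure D2:**
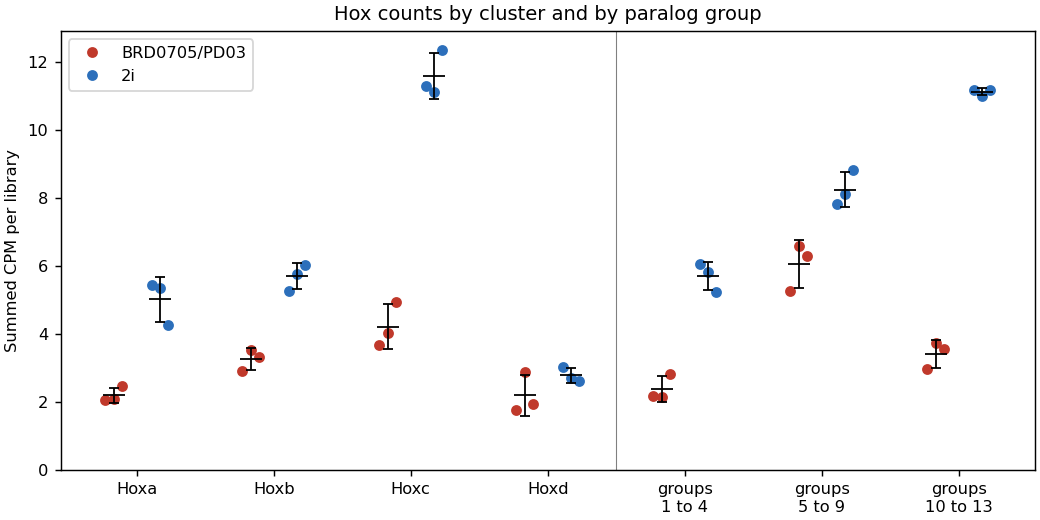
Summed CPM per library (y axis) of the genes of each cluster and of paralog groups 1 to 4, 5 to 9 and 10 to 13, with BRD0705/PD03 left of 2i in each pair; points are libraries and bars the mean and SD of 3. The posterior groups 10 to 13 sum to 3.41 CPM in BRD0705/PD03 and 11.1 CPM in 2i, and the Hoxd points of the media overlap.

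By position along the clusters, the posterior groups 10 to 13 differed by the largest ratio of the 3 classes. They summed to 2.95, 3.74 and 3.55 CPM in BRD0705/PD03, against 11.1 ± 0.104 CPM in 2i (mean and SD), with 2i libraries close together, a ratio of 0.306. Without the most abundant gene of each cluster, the log2 ratio of the posterior groups was -1.33 in place of -1.71. The anterior groups 1 to 4 summed to 2.37 ± 0.387 CPM in BRD0705/PD03 and 5.7 ± 0.414 CPM in 2i. The central groups 5 to 9 were the closest, at 6.05 ± 0.702 CPM in BRD0705/PD03 and 8.25 ± 0.518 CPM in 2i, and without the most abundant gene of each cluster their log2 ratio was 0.22 in place of -0.45. The make-up of the Hox RNA differed too, with central genes at 49.7 to 52.9% of Hox counts in BRD0705/PD03 and 31.2 to 35.0% in 2i. Posterior genes made 28.1 to 29.9% of Hox counts in BRD0705/PD03 and 44.2 to 44.7% in 2i. Of all Hox counts, the posterior gene Hoxc13 alone made 11.3% in BRD0705/PD03 and 25.5% in 2i.

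Single genes were tested with edgeR's quasi-likelihood test over 20422 genes, with Benjamini-Hochberg adjustment and a threshold of 0.05. Of the 39 members 14 passed the filter on low counts, and of these 8 were lower and 1 higher in BRD0705/PD03. Of all genes tested, 61.4% were called, 31.4% as lower and 30.1% as higher. Of the 7250 genes within the members' range of mean level, 0.393 to 3.87 CPM, 46.7% were called, 21.3% as lower and 25.5% as higher. Of the 14 members, 4 passed the filter only through 2i (Hoxa10, Hoxa13, Hoxc4 and Hoxc12) and 1 only through BRD0705/PD03 (Hoxb2), so the split among those that passed is partly set by the filter. With no filter all 39 were tested, and 9 were lower and 1 higher. Over 38414 genes 35.8% were then called, 17.5% as lower and 18.3% as higher. The median log2 fold change over the 39 was then -0.55, with 26 below 0 and 13 above, beside 0.02 over all genes. The added call was Hoxc11. Groups did not overlap for 10 of the 14 members that passed the filter, 8 with BRD0705/PD03 below and 2 above, beside 66.0% of all genes that passed it. Of the 25 members under the filter 5 did not overlap, 2 with BRD0705/PD03 below and 3 above. The share over all genes under the filter was not taken, so this count has nothing to be read against.

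Among the 12 posterior genes, 6 were lower in BRD0705/PD03 and none higher with no filter. Of these, 5 passed the filter, Hoxa10, Hoxa13 and Hoxc12 only through 2i. Hoxc13 (ENSMUSG00000001655.6, chromosome 15, 102921103 to 102928814), a factor of hair and nail formation, stood at 1.32, 1.34 and 1.35 CPM in BRD0705/PD03 and at 6.46, 6.34 and 6.42 CPM in 2i. The spread within each medium was a small part of that gap, and the log2 fold change was -2.26 ± 0.14 (SE, edgeR adjusted p = 7.1e-11). Hoxc12, its neighbour, had 0, 6 and 4 counts in BRD0705/PD03 against 16, 39 and 22 in 2i, or 0.105 ± 0.109 and 0.864 ± 0.0857 CPM, an 8.23-fold lower level. Its log2 fold change of -3.04 was -3.88 without BRD0705/PD03 replicate 2 and -2.48 without replicate 1, and it was called in both. Hoxa10, known for its part in the uterus, stood at 0.431, 0.254 and 0.441 CPM in BRD0705/PD03 and at 1.25, 1.36 and 1.14 CPM in 2i. The groups were again apart, by a log2 fold change of -1.71 ± 0.29 (edgeR adjusted p = 4.0e-05). Hoxa13 and Hoxd13, the last genes of their clusters and both needed for digits, differed less. Hoxa13 stood at 0.232 ± 0.0537 CPM in BRD0705/PD03 and 0.554 ± 0.0403 CPM in 2i (-1.26 ± 0.37, edgeR adjusted p = 0.00621). Hoxd13 stood at 0.523, 0.943 and 0.588 CPM in BRD0705/PD03 and at 1.36, 1.1 and 1.22 CPM in 2i (-0.84 ± 0.27, edgeR adjusted p = 0.0124). With DESeq2 their log2 fold changes were nearly the same, -1.26 for Hoxa13 and -0.84 for Hoxd13, but neither was called (adjusted p = 0.114 and 0.111), and that of Hoxd13 was 0.0553 by edgeR without the first BRD0705/PD03 library and 0.0564 without the third.

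The posterior genes below the filter varied in direction. Hoxa11, Hoxd10 and Hoxd12 had 17, 10 and 4 counts in BRD0705/PD03 against 7, 8 and 1 in 2i. Hoxb13, Hoxc10 and Hoxd11 had 7, 19 and 10 counts in BRD0705/PD03 against 15, 18 and 16 in 2i. With no filter none of these 6 was called, while Hoxc11 was called on 19 counts (-2.40, edgeR adjusted p = 0.0267).

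**Figure D3:**
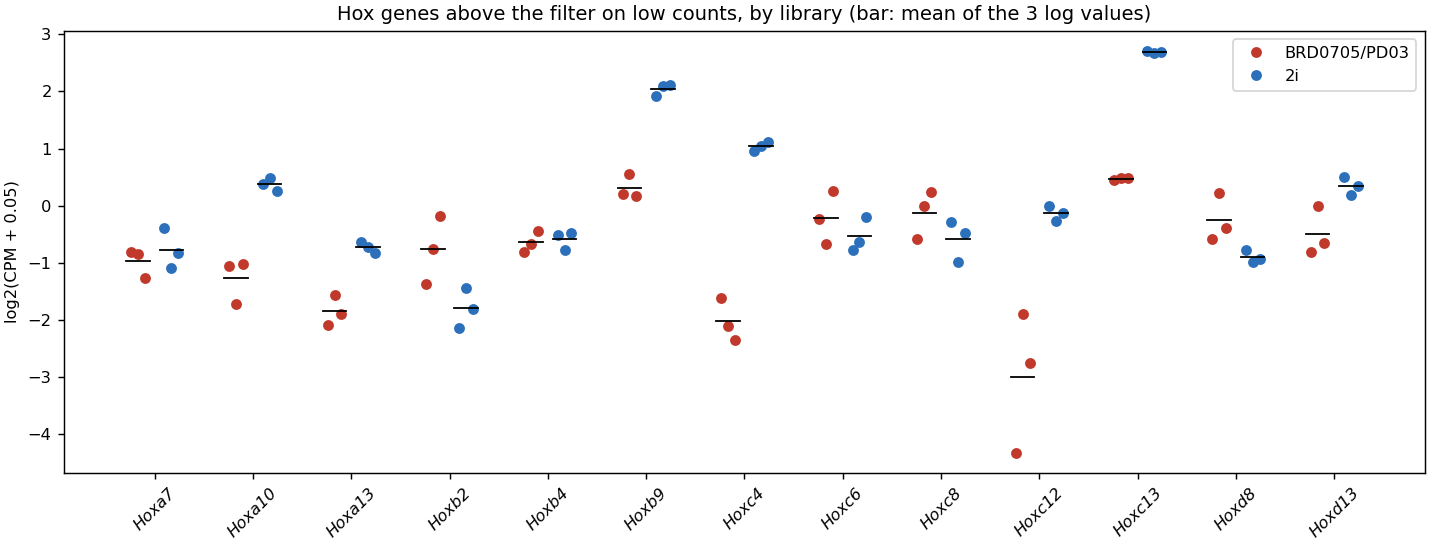
Level of 13 Hox genes above the filter on low counts in each library, as log2(CPM + 0.05), with BRD0705/PD03 left of 2i for each gene, points for libraries and a bar for the mean of the 3 log values. Hoxc13, Hoxb9, Hoxa10, Hoxc4 and Hoxc12 show BRD0705/PD03 points well below those of 2i, while Hoxa7, Hoxb4, Hoxc6 and Hoxc8 overlap.

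Among anterior genes, Hoxc4 fell and Hoxb2 rose in BRD0705/PD03. Hoxc4 (ENSMUSG00000075394.4, chromosome 15, 103018934 to 103036852), the most anterior gene of its cluster, had 9, 5 and 6 counts in BRD0705/PD03 against 32, 101 and 54 in 2i. Its level of 0.202 ± 0.0674 CPM in BRD0705/PD03 was 9.97-fold lower than the 2.01 ± 0.116 CPM in 2i, the lowest log2 fold change of the 14 members (-3.32 ± 0.29, edgeR adjusted p = 8.4e-09). No 2i library came near those of BRD0705/PD03. Hoxb2 (chromosome 11, 96350525 to 96354012), a hindbrain and facial nerve gene, went the other way, at 0.339, 0.544 and 0.833 CPM in BRD0705/PD03 and at 0.178, 0.319 and 0.236 CPM in 2i. Its log2 fold change was 1.13 ± 0.41 (edgeR adjusted p = 0.0219), and the lowest BRD0705/PD03 library was close to the highest 2i library. The call was lost with DESeq2 (1.18, adjusted p = 0.161) and without 2i replicate 1 (0.0685) or replicate 3 (0.0577), and without BRD0705/PD03 replicate 3 Hoxb2 did not pass the filter. Hoxb4, which expands blood stem cells when forced, did not differ beyond its spread, at 0.596 ± 0.0825 CPM in BRD0705/PD03 and 0.62 ± 0.0716 CPM in 2i (-0.01 ± 0.30, edgeR adjusted p = 0.975).

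The other anterior genes were below the filter. Hoxa2, Hoxa4, Hoxd1 and Hoxd4 had 7, 5, 7 and 12 counts in BRD0705/PD03 against 12, 8, 13 and 23 in 2i, and Hoxb3 had 15 against 14. The fold changes of these 5 genes were not called with no filter either. Hoxd3 and Hoxd4 share exons in the annotation, so that 62.3% of the exon bases of Hoxd3 and 52.3% of those of Hoxd4 also belong to another gene model on the same strand, and their values are uncertain.

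Among the 15 central genes 1 was called, with or without the filter. Hoxb9 (ENSMUSG00000020875.9, chromosome 11, 96271457 to 96276595), which patterns the ribs, stood at 1.11, 1.42 and 1.08 CPM in BRD0705/PD03 and at 3.73, 4.22 and 4.3 CPM in 2i. The media were far apart, with a log2 fold change of -1.79 ± 0.17 (edgeR adjusted p = 3.5e-08). The other 4 did not pass. Hoxd8, a trunk gene, stood at 0.616, 1.12 and 0.71 CPM in BRD0705/PD03 and at 0.533, 0.458 and 0.473 CPM in 2i. Its groups did not overlap, and the log2 fold change of 0.74 ± 0.32 had an adjusted p of 0.0515 by edgeR, just over the threshold. It passed with median-ratio factors (0.0488), with upper-quartile factors (0.0366) and without BRD0705/PD03 replicate 1 (0.032). Hoxd8 was not called under any other setting that tested it. By DESeq2 the adjusted p was 0.267. By edgeR it was 0.0634 with no filter, 0.263 without BRD0705/PD03 replicate 2 and 0.14 without 2i replicate 2. Hoxc8, a gene of thoracic vertebrae and forelimb motor neurons, had 0.895 ± 0.259 CPM in BRD0705/PD03 and 0.633 ± 0.159 CPM in 2i (0.59 ± 0.31, edgeR adjusted p = 0.11), and passed only without BRD0705/PD03 replicate 1 (0.038). Hoxc6, a thoracic gene, had 0.844 ± 0.288 CPM in BRD0705/PD03 and 0.653 ± 0.155 CPM in 2i (edgeR adjusted p = 0.281), and Hoxa7 had 0.466 ± 0.0858 CPM in BRD0705/PD03 and 0.547 ± 0.15 CPM in 2i (edgeR adjusted p = 0.703).

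Below the filter, Hoxb5, Hoxb6, Hoxb7 and Hoxc9 had 6, 21, 34 and 35 counts in BRD0705/PD03 against 2, 10, 22 and 24 in 2i. Hoxa5, Hoxa9, Hoxc5 and Hoxd9 had 7, 23, 29 and 23 counts in BRD0705/PD03 against 15, 24, 38 and 37 in 2i. With no filter none of these 8 was called.

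Read along the Hoxc cluster, the lower genes in BRD0705/PD03 sat at both ends. In Hoxc the fitted log2 fold changes with no filter were -3.30 at Hoxc4 and -0.55 at Hoxc5, then 0.42, 0.61, 0.45 and -0.03 from Hoxc6 to Hoxc10, and -2.40, -3.02 and -2.23 from Hoxc11 to Hoxc13. In Hoxa, Hoxa10 and Hoxa13 at the posterior end were called. In Hoxb the values of the central run Hoxb5, Hoxb6 and Hoxb7 were 1.27, 0.95 and 0.56 and that of Hoxb9 was -1.77. In Hoxd only Hoxd13 was called. Genes of 1 cluster are close neighbours in the genome and share their regulation in embryos, so they are not independent observations.

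**Figure D4:**
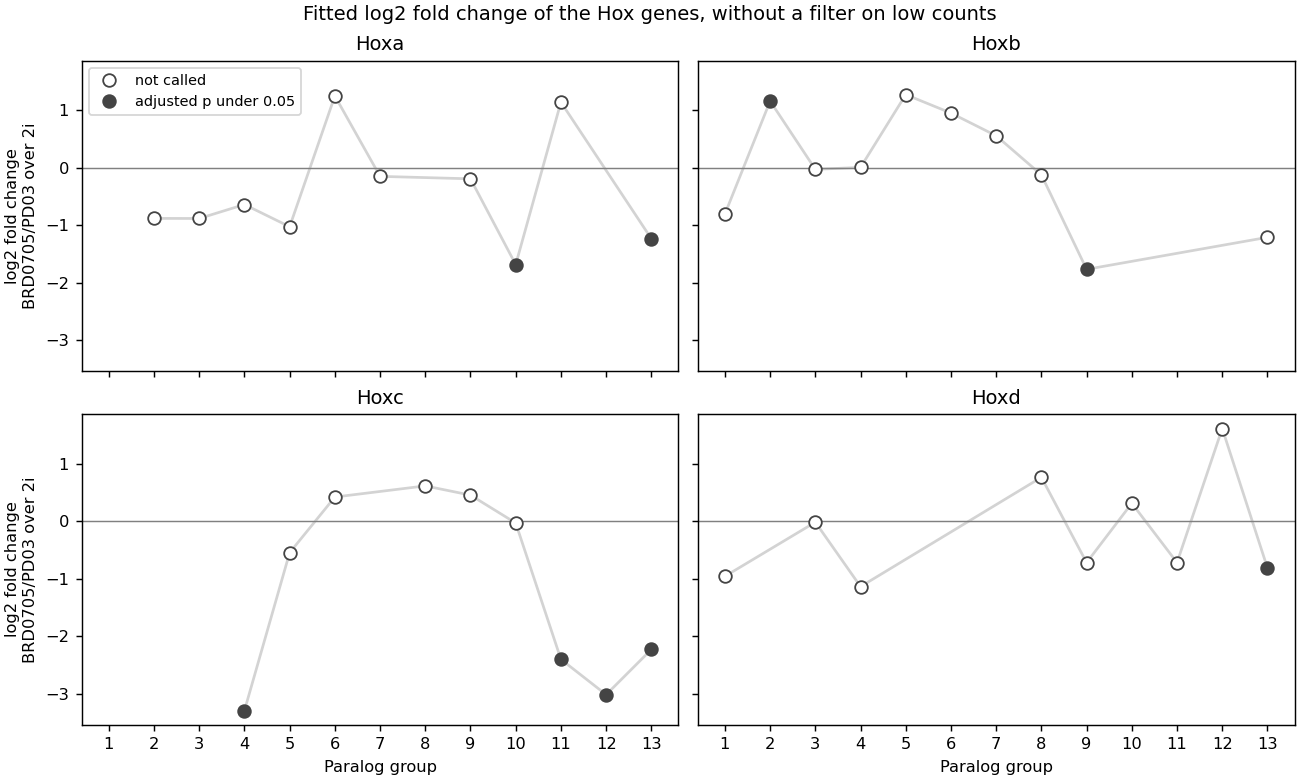
Fitted log2 fold change of BRD0705/PD03 over 2i (y axis) of the Hox genes with no filter on low counts, by paralog group (x axis) in each cluster; filled points have an edgeR adjusted p under 0.05. The filled points below 0 lie at paralog groups 4, 9 and 10 to 13, and the Hoxc6, Hoxc8 and Hoxc9 points lie above 0 without a call.

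Levels compared between genes need a length, so CPM per kilobase of exon were used. On that scale Hoxc13 was highest in both media, at 0.544 ± 0.0051 in BRD0705/PD03 and 2.60 ± 0.0261 in 2i. Hoxb9 came next, at 0.466 ± 0.0724 in BRD0705/PD03, close to Hoxc13 for its spread, and 1.59 ± 0.119 in 2i. The order then parted. In BRD0705/PD03 it went on with Hoxc6 (0.35 ± 0.12), Hoxc8 (0.316 ± 0.0914) and Hoxd8 (0.298 ± 0.0986), which did not differ beyond their spread. In 2i Hoxc12 (0.838 ± 0.0831) and Hoxc4 (0.784 ± 0.0451) were the next of those given here, and likewise did not differ beyond theirs. Pou5f1 stood at 305 CPM per kilobase in BRD0705/PD03 and 340 in 2i.

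Hox promoters are known as regions rich in CpG, the dinucleotide that vertebrate Polycomb targets carry at high density. RefSeq windows of 300 bases, from 250 before to 50 after a start (GRCm38.p6), were matched for 22 of the 39 members, with 24 windows in all. The median window held 14.5 CpG and 57.7% G or C, beside 7 CpG and 52.7% over all 32851 windows of the table, and the members ranged from 4 to 45 CpG. The windows of 3 called genes and of Hoxd8 are shown as examples of high and low CpG counts. They have CpG in capitals, and each runs 5′ to 3′ on the strand of the gene. They lie at chr6:52260831-52261130 (minus strand) for Hoxa13, chr2:74667975-74668274 (plus) for Hoxd13, chr15:103034145-103034444 (plus) for Hoxc4 and chr2:74704365-74704664 (plus) for Hoxd8.
Hoxa13: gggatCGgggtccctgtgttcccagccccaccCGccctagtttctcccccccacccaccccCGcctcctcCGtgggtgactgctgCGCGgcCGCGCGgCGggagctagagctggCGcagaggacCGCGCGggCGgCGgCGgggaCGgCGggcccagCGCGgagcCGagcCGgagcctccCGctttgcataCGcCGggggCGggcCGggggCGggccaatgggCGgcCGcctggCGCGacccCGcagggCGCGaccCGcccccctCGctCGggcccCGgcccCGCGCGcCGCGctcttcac
Hoxd13: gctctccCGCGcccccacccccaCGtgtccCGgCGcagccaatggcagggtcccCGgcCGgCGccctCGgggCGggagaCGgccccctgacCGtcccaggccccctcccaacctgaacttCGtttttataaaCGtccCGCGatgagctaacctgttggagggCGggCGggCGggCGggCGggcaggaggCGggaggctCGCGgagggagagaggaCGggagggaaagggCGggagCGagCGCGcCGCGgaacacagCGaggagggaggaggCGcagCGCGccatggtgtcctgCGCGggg
Hoxc4: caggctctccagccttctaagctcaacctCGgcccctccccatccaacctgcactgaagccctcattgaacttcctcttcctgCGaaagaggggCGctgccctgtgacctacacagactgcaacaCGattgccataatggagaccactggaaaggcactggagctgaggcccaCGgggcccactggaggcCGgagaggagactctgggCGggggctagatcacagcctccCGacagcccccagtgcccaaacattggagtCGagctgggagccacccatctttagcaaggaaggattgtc
Hoxd8: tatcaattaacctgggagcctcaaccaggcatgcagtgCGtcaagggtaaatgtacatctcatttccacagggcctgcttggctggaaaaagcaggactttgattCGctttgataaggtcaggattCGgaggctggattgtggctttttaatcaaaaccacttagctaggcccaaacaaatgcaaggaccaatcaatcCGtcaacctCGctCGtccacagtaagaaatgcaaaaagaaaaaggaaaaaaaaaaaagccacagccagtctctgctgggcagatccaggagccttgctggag

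The Hoxa13 and Hoxd13 windows held 45 and 37 CpG, and those of Hoxc4 and Hoxd8 held 9 and 6. The windows of the lower genes shown thus ranged from 9 to 45 CpG. The Hoxc4 window lies inside the annotated span of the gene (103018934 to 103036852) and not at its 5′ end. Hoxb9, Hoxc12 and Hoxc13 had no window. The 7 letters CTTTGAT, a core of the sites of TCF/LEF factors that act with beta-catenin, were sought on both strands and found in 1 of 24 Hox windows (4.17%), beside 3.73% of all windows. The match was in the Hoxd8 window, which held the letters 2 times. The letters TTTATGG of Cdx sites were in the Hoxd4 window alone (4.17%, beside 2.75% of all windows), and TGATNNAT, the letters of Pbx-Hox sites, in 4 windows (16.7%, beside 8.85%), those of Hoxa2, Hoxb1, Hoxb8 and Hoxd11. The letters CCAAT were in 15 windows (62.5%, beside 37.4%). The TCF/LEF and Pbx-Hox letters can share TGAT where sites overlap. The TCF/LEF, Cdx and Pbx-Hox letters were in none of the windows of Hoxa10, Hoxa13, Hoxc4 and Hoxd13, the called genes that had a window.

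Noncoding RNAs lie between and across the Hox genes, and none of the 17 that were measured passed the filter. Hotair, an antisense RNA between Hoxc11 and Hoxc12, had 1, 0 and 3 counts in BRD0705/PD03 against 2, 14 and 8 in 2i. Hotairm1, a noncoding RNA of the Hoxa cluster, had 5, 1 and 5 counts in BRD0705/PD03 against 5, 21 and 7 in 2i. Both were lower in BRD0705/PD03, with adjusted p of 0.00352 and 0.0154 by edgeR with no filter. Hoxd3os1, whose exons overlap those of Hoxd3 and Hoxd4 on the other strand, had 11 counts in BRD0705/PD03 and 2 in 2i, a ratio of 5.04 (exact 95% interval 1.1 to 46.8, counting error only), but was not called by edgeR with no filter (adjusted p = 0.133). Hottip, Hoxb5os, Hoxa11os and Hoxaas2 had at most 5 counts in either group. Hoxaas3, Haglr and Halr1 had 3, 7 and 21 counts in BRD0705/PD03 and 6, 7 and 27 in 2i. Whether the counting used strand is unknown here, and reads of a gene and its antisense partner then cannot be told apart. This touches Hoxb2, since 27.3% of its exon bases overlap Hoxb3os, which had 28 counts in BRD0705/PD03 and 11 in 2i.

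The clusters also hold microRNA genes, and 5 of the 6 listed (Mir10a, Mir10b, Mir196a-2, Mir196b and Mir615) had 0 counts in every library. Mir196a-1, upstream of Hoxb9, had 1, 2 and 2 counts in BRD0705/PD03 against 5, 18 and 7 in 2i (edgeR adjusted p = 0.000906 with no filter). These libraries were not made for small RNAs, so the counts say nothing of the mature miRNA, whose sequence is shown with its seed, bases 2 to 8, in capitals since its known mouse targets include Hoxb8.
mmu-miR-196a-5p: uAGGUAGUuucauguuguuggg
This mature sequence lies at chr11:96265187-96265208 (plus strand), between the end of Gm53, a noncoding gene model on the same strand, and Hoxb9. Gm53 stood at 9.11, 10.3 and 9.87 CPM in BRD0705/PD03 and averaged 13.2 ± 1.14 CPM in 2i, and fell by 0.45 on the log2 scale in BRD0705/PD03.

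The genes of the TALE partners changed in both directions. Of 9 members 4 were higher and 3 lower in BRD0705/PD03 (median log2 fold change -0.10, beside 0.00 over all genes tested). The share called was 77.8%, beside 61.4% of all genes tested. Meis2, a partner that also marks limb and neural progenitors, stood at 2.03, 2.14 and 1.81 CPM in BRD0705/PD03 and at 45.2, 47.3 and 47.3 CPM in 2i. It was 23.6-fold lower (-4.56 ± 0.08, edgeR adjusted p = 7.8e-19). The relatives Pbx2, Pbx3 and Meis3 rose by 0.44, 0.79 and 0.82 on the log2 scale. Pknox1 fell by 0.48 on the log2 scale, and Pknox2 fell to 1.63 ± 0.367 CPM in BRD0705/PD03 against 6.19 ± 0.443 CPM in 2i. Meis1 (2.47 ± 0.362 CPM in BRD0705/PD03 and 2.71 ± 0.334 CPM in 2i) and Pbx4 did not pass the test.

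**Figure D5:**
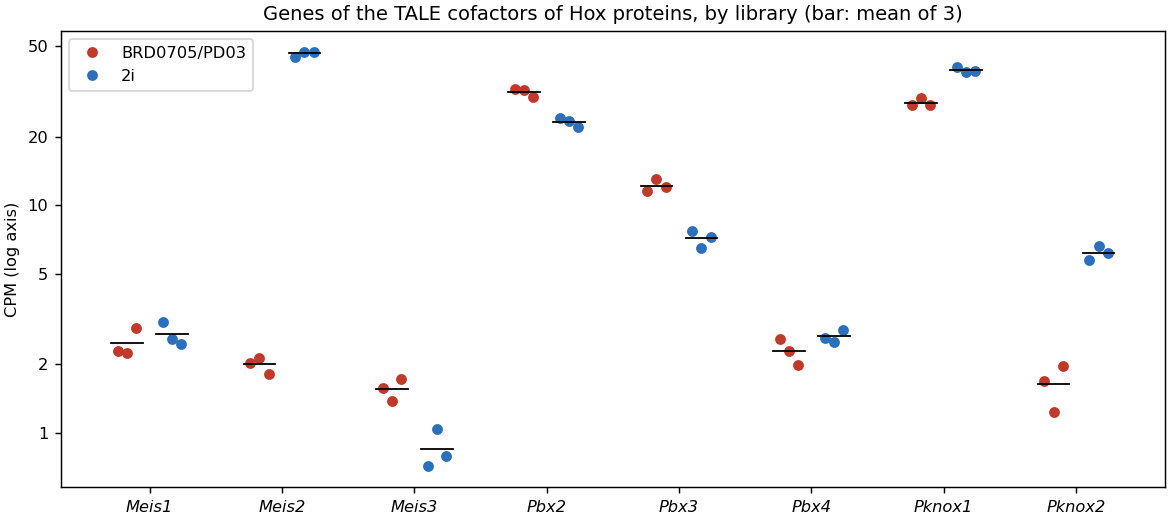
Level in CPM (log axis) of 8 genes of TALE cofactors in each library, with BRD0705/PD03 left of 2i for each gene, points for libraries and a bar for the mean of 3. Meis2 is near 2 CPM in BRD0705/PD03 and 46.6 CPM in 2i.

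Among homeobox relatives outside the clusters, 4 of 13 passed the filter, with 1 higher and 1 lower. The share called of those tested was 50%, beside 61.4% of all genes tested. Cdx1, an activator of Hox genes and a target of Wnt signalling, had 3, 7 and 7 counts in BRD0705/PD03 against 31, 82 and 46 in 2i, 10.1-fold lower (-3.34 ± 0.32, edgeR adjusted p = 3.3e-08). Cdx1 passed the filter only through 2i, so the split of this list is partly set by the filter. Gbx2, a factor of the midbrain-hindbrain border, stood at 4.26 ± 0.322 CPM in BRD0705/PD03 and 1.93 ± 0.296 CPM in 2i (1.19 ± 0.16). Evx1, next to Hoxa13, and Gbx1 did not pass, at adjusted p of 0.115 and 0.708 by edgeR. Of 13 retinoid genes tested, 7 were higher and 5 lower (median 0.61), so 92.3% were called, beside 61.4% of all genes tested. Crabp2, which carries retinoic acid to its receptors, stood at 9.19 ± 0.128 CPM in BRD0705/PD03 and 0.897 ± 0.0989 CPM in 2i. Rarg, a receptor gene, rose by 1.10 on the log2 scale, while Rxra, the gene of a partner receptor, and Crabp1, a relative of Crabp2, fell by 1.36 and 1.69.

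Polycomb genes, whose products silence Hox clusters, were 3 higher and 7 lower of 12 for complex 2 (median -0.13) and 5 higher and 10 lower of 20 for complex 1 (median -0.28). Epop, Suz12, Mtf2 and the X-linked Rbbp7 of complex 2 fell by 0.99, 0.78, 0.74 and 0.87 on the log2 scale, while the catalytic subunit gene Ezh2 did not pass the test (0.01 ± 0.05). In complex 1, Scmh1 and Cbx2 fell by 1.61 and 1.02, and Kdm2b and Phc1 rose by 0.88 and 0.73. Of 13 trithorax-side genes, which keep Hox genes on, 4 were higher and 6 lower (median -0.07), among them Wdr5, an adaptor of histone methyltransferases (-1.02 ± 0.04), and Psip1 (0.73 ± 0.04), while Ash2l and the X-linked Kdm6a fell by 0.34 and 0.43. Shares called in these 3 lists were 83.3, 75.0 and 76.9%, beside 61.4% of all genes tested.

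Genes beside the clusters were called in both directions. Of the 3 nearest protein-coding genes on each side of each cluster, 23 of 24 passed the filter, and 9 were higher and 9 lower (median -0.08). The share called of those tested was 78.3%, beside 61.4% of all genes tested. Evx2, 8.75 kb from Hoxd, was below the filter with 3 counts in BRD0705/PD03 and 1 in 2i. The flanks of Hoxb went opposite ways. Calcoco2, an autophagy receptor gene 82.4 kb beyond Hoxb13, stood at 12.5 ± 0.184 CPM in BRD0705/PD03 and 114 ± 0.445 CPM in 2i, and Ttll6, which lies between them, fell by 0.87 on the log2 scale. On the other side Skap1, a T cell adaptor gene 96.3 kb beyond Hoxb1, stood at 1.06 ± 0.136 CPM in BRD0705/PD03 and 0.146 ± 0.0941 CPM in 2i (2.72 ± 0.39, edgeR adjusted p = 6.7e-06, and 3.43 without 2i replicate 2). Skap1 passed the filter only through BRD0705/PD03. Around Hoxa, Snx10 and Cbx3 rose by 0.49 and 0.27 and Skap2 fell by 0.13, a call lost under 8 of 13 alternatives. Around Hoxc, Cbx5, Atp5g2 and Calcoco1 rose by 0.77, 0.65 and 0.60, and Smug1 and Atf7 fell by 0.56 and 0.49. Around Hoxd, Lnpk, Hnrnpa3 and Atp5g3 fell by 0.65, 0.38 and 0.15 and Nfe2l2 rose by 0.24. Beside Hoxb, Cbx1 and Snx11 rose by 0.70 and 0.20 and Atp5g1 fell by 0.19.

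Fibroblasts of a feeder layer can express Hox genes, so the fibroblast markers are given beside the Hox result. The mean log2 CPM of 5 of them (Col1a1, Col1a2, Col3a1, Dcn and Postn), centred on all libraries, was 0.19, 0.53 and 0.75 in BRD0705/PD03 and -0.48, -0.46 and -0.53 in 2i. Between the media it thus ran opposite to the Hox sum. Within BRD0705/PD03 it rose together with the Hox sum, which was 10.4, 12.5 and 12.7 CPM in replicates 1 to 3. In 2i the Hox sums were 25.1, 24.9 and 25.3 CPM in that order. With that level as a covariate, Hoxc13 (-2.29, edgeR adjusted p = 0.00198) and Hoxb9 (-1.76, 0.0371) stayed lower. The calls of Hoxa10 (0.218), Hoxa13 (0.379), Hoxc4 (0.262), Hoxc12 (0.0714), Hoxd13 (0.406) and Hoxb2 (0.455) were lost. The log2 fold changes of Hoxa10, Hoxa13, Hoxc12 and Hoxd13 were then -1.78, -1.77, -5.99 and -1.17, no nearer to 0 than without the covariate, while that of Hoxc4 was -1.79 and that of Hoxb2 turned to -1.26. The covariate itself separates the media, which leaves little to estimate the medium from, so this fit cannot tell fibroblast content from medium. The part of fibroblasts in the Hox result was not tested. Of the other marker lists, caudal epiblast and mesoderm genes were 4 higher and 0 lower of 6 tested. Some of the 4 passed the filter only through BRD0705/PD03. Wnt3a of this list, lower with no filter (edgeR adjusted p = 9.3e-06), did not pass it, so this split is partly set by the filter. Summed levels of the list were 15.3 to 17.4 CPM in BRD0705/PD03 and 8.07 to 9.58 CPM in 2i. Neural genes were 6 higher and 3 lower of 9, at 243 to 244 CPM in BRD0705/PD03 and 176 to 185 CPM in 2i, and endoderm genes 4 higher and 2 lower of 8, at 8.19 to 9.48 CPM in BRD0705/PD03 and 6.79 to 7.29 CPM in 2i. Shares called of those tested were 66.7, 100 and 75% in that order, beside 61.4% of all genes tested. In each of these 3 lists 1 gene was at 0 in 2i and none in BRD0705/PD03, and their part in the Hox result was not tested.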

How the data were processed

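Total RNA of 3 BRD0705/PD03 and 3 2i samples was sequenced after removal of ribosomal RNA (per the labels' protocols). The deposited whole numbers were taken as estimated counts that the authors had rounded and not scaled, since the submitters' processing notes list Salmon (no version) and mm10. Annotation and strand setting: not given in the sources used here. Groups and replicate numbers came from the titles.

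Genes were fitted on the whole table with edgeR 4.0.16 in R 4.3.3 (filterByExpr, TMM, robust quasi-likelihood test, two-sided, medium as the only term), with Benjamini-Hochberg adjustment over 20422 genes. Standard errors are the log2 fold change over the square root of F. CPM use effective library sizes. Cluster sums have no test. Annotation is GENCODE M21 on GRCm38, matched by symbol: 51945 of 53927 symbols matched 1 gene. Members above the filter, called members of the small related lists and up to 4 called genes of larger lists are named, and Ezh2, Meis1, Pbx4, Gbx1, Evx1, Evx2 and Gm53 were added with their values known. A few genes count in totals, sums and list counts but are not reported singly here. The members and lists were chosen with earlier results of these data known. Chi-square per degree of freedom within groups was 2.77 to 9.84, so no pair agreed within sampling noise. The fit was checked on simulated data. Alternatives were DESeq2 1.42.0, other factors and filters, the replicate number as a block, each library left out and a fibroblast covariate.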

Additional observations from a re-analysis of the deposited data

How the results depend on the processing

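The count of Hox genes lower in BRD0705/PD03, 8, was 6 with DESeq2, 9 with no filter and 7 to 8 without single libraries, but 4 among genes averaging 1 CPM or more, where only 4 members were tested, and 3 with the fibroblast covariate. The count higher, 1 (Hoxb2), was 0 with DESeq2, under that same filter and with the covariate, 2 with median-ratio or upper-quartile factors, and 0 to 3 without single libraries (0 without 2i replicate 1, 2i replicate 3 or BRD0705/PD03 replicate 3, and 3 without BRD0705/PD03 replicate 1). With the replicate number as a block the counts were 1 and 8. The numbers did not pair the samples: deviations of same-numbered libraries correlated at -0.0473 to 0.0746, and BRD0705/PD03 replicate 1 correlated best with 2i replicate 3 (0.127).

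With the covariate, 2249 genes were higher and 2963 lower over all genes, in place of 6138 and 6406, and related lists had 16 higher and 24 lower, in place of 33 and 41. It reversed uncalled Hoxa7 (0.68), Hoxc6 (-0.39) and Hoxc8 (-0.86), and Hoxb2 (-1.26), Aldh1a1 (-0.64) and Ezh1 (-0.12), each of them then uncalled. Hoxb4, near 0, turned to 0.0514 with upper-quartile factors and 0.0058 with no filter, and ran from -0.1382 to 0.0769 without single libraries, and Hoxa7 turned to 0.0185 without 2i replicate 1. The cause was not tested.

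Without the most abundant gene of each cluster, log2 ratios of summed CPM were -0.49 for all members, -0.85 for Hoxa, 0.35 for Hoxb, -0.85 for Hoxc, -1.0004 for anterior, 0.22 for central and -1.33 for posterior groups. Without single libraries they ran from -1.14 to -0.997 for all members, -1.30 to -1.13 for Hoxa, -0.87 to -0.73 for Hoxb, -1.59 to -1.37 for Hoxc, -0.59 to -0.21 for Hoxd, -1.41 to -1.20 for anterior, -0.51 to -0.36 for central and -1.78 to -1.61 for posterior groups. Detected members numbered 30 to 32 in BRD0705/PD03 and 28 to 33 in 2i without single libraries, and 26 and 29 at a mean of 0.1 CPM. Depth limits all values: most members had under 100 counts in all.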

Other observations

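Some genes of the related and marker lists below the filter had summed counts that differed between the media. Meox2, a mesoderm homeobox gene, had 33 counts over the BRD0705/PD03 libraries and 7 over the 2i libraries, and Gsx2, a forebrain gene, had 20 in BRD0705/PD03 and 41 in 2i. Cdx2, a trophoblast and tail factor, had 16 in BRD0705/PD03 and 33 in 2i, while Cdx4, its relative of the tail bud, had 18 in BRD0705/PD03 and 4 in 2i with libraries that overlapped. Rxrg, a retinoid receptor gene, had 12 counts in BRD0705/PD03 and 0 in 2i. Wnt3a, a Wnt ligand of the tail bud, had 2 in BRD0705/PD03 and 32 in 2i. They were picked with these values known and did not pass the filter.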
